A study of Mus musculus with 4 samples.

Results

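CD8+CX3CR1- dendritic cells (DCs) and CD4+ DCs, both sorted from mouse spleen, were compared across all named genes of an Affymetrix Mouse Genome 430.2 array. The comparison uses 2 arrays of the 4 in the series, 1 per subset, taken by sample title. The other arrays hold CD8+CX3CR1+ DCs and DN DCs, and their values are given only side by side. Both groups came from Cx3cr1gfp/+ C57BL/6 mice, in which a green fluorescent protein gene stands in place of 1 copy of the chemokine receptor gene Cx3cr1, so every cell carries a single intact copy. Both carry the label of no BMP4 treatment. Spleens were digested with collagenase D, CD11c+ cells were enriched on magnetic beads and CD11chi cells were sorted by flow cytometry. The labels state neither the age or sex of the mice, nor the sort gates, the number of spleens or any pooling. With 1 array per group there is no replicate check, so differences are described without error or test and hold for these 2 RNA samples.

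Spleen DCs take up antigen, cut it into peptides and show these to T cells on MHC molecules. CD8+ DCs depend on the transcription factors IRF8 and BATF3, take up dying cells and are known for cross-presentation, in which outside antigen is loaded on MHC class I. CD4+ DCs belong to the CD11b+ lineage, depend on IRF4, RelB and Notch2 signals, carry SIRP-alpha and are known for presenting antigen on MHC class II. The comparison thus sets the classical pair of spleen DC subsets against each other.

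The values are MAS5 signal per probe set on a linear scale. Where several probe sets name a gene, the brightest one by mean log2 signal over the 4 arrays was used. Signals under a floor of 55.7, set from chemosensory receptor and hair keratin-associated protein genes, were raised to it, so that a gene under the floor on 1 array has only a bound ("at least N-fold"). Signals above the floor but under the same percentile of their own array (62.6 for CD8+CX3CR1- and 59.9 for CD4+) lie within its background. Pairs of values are given as CD8+CX3CR1- against CD4+. MAS5 scales each array to the same trimmed mean, so a difference in total RNA per cell cannot be seen, and fewer cells of a type cannot be told apart from less RNA per cell.

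At the genes that name the sorts, signals followed the titles. Cd8a, the CD8 alpha chain, had a signal of 4742 against 18.7 and was at least 85.1-fold higher in CD8+CX3CR1- DCs, and its 5 probe sets above the floor were all higher there, by 0.49 to 6.41 on the log2 scale. Cd4 was 21.1 against 564 and at least 10.1-fold higher in CD4+ DCs. The other Cd4 probe set differed by a log2 value of only -0.43. Cx3cr1 was 97.3 against 275, or 2.83-fold higher in CD4+ DCs. Itgax, the CD11c chain used for enrichment, was 3271 against 6415. The label field for the DC type of the array titled CD8+CX3CR1- reads CD8+CX3CR1+, and that of the DN array reads CD4+. The Cd8a, Cd4 and Cx3cr1 values go with the titles, which were used.

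Of 18193 named genes, 11641 lay above the floor on at least 1 of the 2 arrays, 8486 of them on both. Most genes were close, with 9638 (82.8%) less than 2-fold apart. At 4-fold or more, 149 genes (1.28%) were higher in CD8+CX3CR1- DCs, 50 of them as bounds, and 227 (1.95%) were higher in CD4+ DCs, 87 as bounds, or 3.23% either way. Over 20061 named probe sets the counts were 220 (1.1%) and 289 (1.44%). At 2-fold or more, 855 genes (7.34%) were higher in CD8+CX3CR1- DCs and 1148 (9.86%) in CD4+ DCs. Counts of list members below are to be read against these shares of all detected genes. Past 16-fold, 15 genes were higher in CD8+CX3CR1- DCs and 26 in CD4+ DCs. Which direction had more genes depended on the scaling. With the arrays set to an equal median signal, 236 genes were at least 4-fold higher in CD8+CX3CR1- DCs and 158 in CD4+ DCs. The median log2 difference of all detected genes, -0.07 as deposited (CD8+CX3CR1- minus CD4+), became 0.24. This scaling adds up to 0.35 to a log2 difference, so single values between -0.35 and 0 can change sign under it, and counts of members by sign are given with it. On the CD4+ array more probe sets lay above the floor (47.6%, with 41.0% on the other) and the Gapdh control had a higher 3' to 5' ratio of signal, a sign of less intact RNA (11.8 for CD4+ and 8.33 for CD8+CX3CR1-). The part of these features in the results was not tested.

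**Figure D1:**
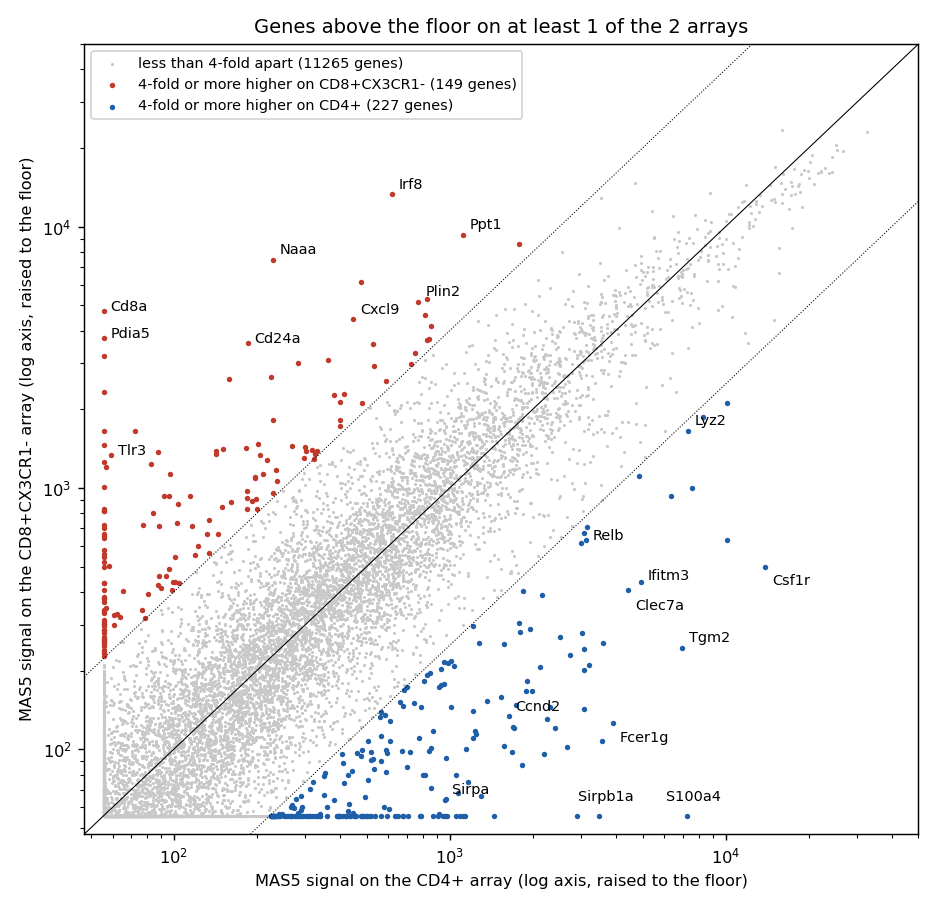
MAS5 signal of each gene above the floor on at least 1 of the 2 arrays, CD4+ array on the horizontal and CD8+CX3CR1- array on the vertical axis (both log scales, values under the floor of 55.7 raised to it). Red points are the 149 genes at least 4-fold higher in CD8+CX3CR1- DCs and blue points the 227 higher in CD4+ DCs, with most of the other genes lying near the diagonal.

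Genes of CD8 DCs formed the most one-sided list. Of the 27 members detected, 22 were at least 4-fold higher in CD8+CX3CR1- DCs and 0 in CD4+ DCs, with a median log2 difference of 3.97. The members, as in the lists below, were chosen with earlier results of these data known, and they include the sort marker itself. The one-sidedness is therefore no independent support, and 19 of the 27 members also stand in other lists below. Naaa, a lysosomal amidase that breaks down fatty acid ethanolamides, was 7460 against 228 (32.7-fold). Irf8, the transcription factor that CD8 DCs require, was 13285 against 617 (21.5-fold). Tlr3, the endosomal receptor for double-stranded RNA, was 1338 against 59.2. The CD4+ value of Tlr3 lies within the background of its own array, so its 22.6-fold difference is best read as a bound.

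Surface and adhesion genes of this lineage followed the same pattern. Cd24a, a mucin-like surface protein, was 3593 against 185 (19.4-fold). Cadm1, an adhesion molecule that binds CRTAM on lymphocytes, was 2621 against 158 (16.6-fold). Itgae, the CD103 integrin chain, was 1130 against 97.2 (11.6-fold). These 3 differed in the other subsets: the CD8+CX3CR1+ array read 2280 for Cd24a, 245 for Cadm1 and 105 for Itgae. Xcr1, the receptor for the chemokine XCL1, was 519 against a value under the floor (at least 9.31-fold). Btla, an inhibitory receptor that binds HVEM, was 5288 against 826 (6.40-fold).

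Other called members have varied roles. Rab7b, a Rab protein of late endosomes, was at least 57.3-fold higher (3191 against 28.8). Cd36, a scavenger receptor for oxidised lipids and dying cells, was at least 26.1-fold higher (1454 against 31.7). Ppt1, a lysosomal enzyme that removes palmitate from proteins, was 9309 against 1113 (8.36-fold). P2ry14, a receptor for UDP-sugars, was at least 41.8-fold higher (2327 against 28.0). Plpp1, a lipid phosphatase, was at least 22.5-fold higher (1252 against 16.3). Of these 5 genes all but Ppt1 lay under the floor in CD4+ DCs. Gcsam, a signalling adaptor of germinal centre B cells, was 1650 against 72.2 (22.9-fold), and Ttc39a was at least 29.8-fold higher (1659 against 11.8). Septin3, a GTPase of the septin cytoskeleton (734 against 103), Hepacam2, an immunoglobulin family protein (432 against 55.1), Clnk, an adaptor of immune receptors (394 against 80.6), and Snx22, a sorting nexin (287 against 10.9), completed the called members with Sema4f and Pdia5. Septin3 had a log2 difference of 1.63 with probe sets averaged, and Snx22 1.97 with a floor at the 95th percentile.

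The 5 members that did not reach 4-fold include genes that define the lineage elsewhere. Batf3, a transcription factor needed for CD8 DCs, was 2570 against 2678 and differed by 1.04-fold. Ly75, the DEC-205 uptake receptor, was low on both arrays at 136 against 141. Wdfy4, required for cross-presentation, was 10999 against 6458 (1.70-fold). Tlr12 and Gpr33 were at least 3.52-fold and at least 3.44-fold higher in CD8+CX3CR1- DCs. So in these arrays Irf8 separated the subsets while Batf3 and Ly75 did not. Clec9a was not analysed here.

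Genes of CD4 and CD11b DCs were as one-sided in the other direction. Of the 25 members detected, 20 were at least 4-fold higher in CD4+ DCs and 1 in CD8+CX3CR1- DCs, with a median log2 difference of -3.55. S100a4, a calcium-binding protein of motile cells, was at least 130-fold higher (34.0 against 7230). Csf1r, the receptor for macrophage colony-stimulating factor, was 498 against 13894 (27.9-fold). Sirpa, the inhibitory receptor for CD47 that marks this lineage, was 64.1 against 963. Sirpb1a, its activating relative, was 9.0 against 3469 (at least 62.3-fold). Both SIRP genes thus lay near or under the floor in CD8+CX3CR1- DCs.

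Among the other members, Dtx1, a Notch target that encodes a ubiquitin ligase, was at least 52.0-fold higher in CD4+ DCs (49.9 against 2895). Adgre1, which encodes F4/80, was 143 against 3068 (21.4-fold). Ccr6, the receptor for CCL20, was at least 19.6-fold higher (55.5 against 1094). Gpr183, the oxysterol receptor EBI2 that places CD4+ DCs in the bridging channels of the spleen, was 118 against 1234 (10.5-fold). Esam, an adhesion molecule of Notch2-dependent DCs, was 135 against 582 (4.32-fold). Adam19, a membrane protease, was the exception, at 1816 against 402 (4.52-fold higher in CD8+CX3CR1- DCs). Itgam, the CD11b chain, was under the floor on both arrays (2.6 against 53.3), so the CD11b lineage had no signal above background at its own marker here, and Clec4a4 was not analysed here. With all probe sets of a gene averaged, 16 of this list's members passed 4-fold in place of 20, and Cd4 (log2 -1.89), Irf4 (-1.23), Lrp1 (-1.80) and Cd300a (-1.60) no longer did.

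**Figure D2:**
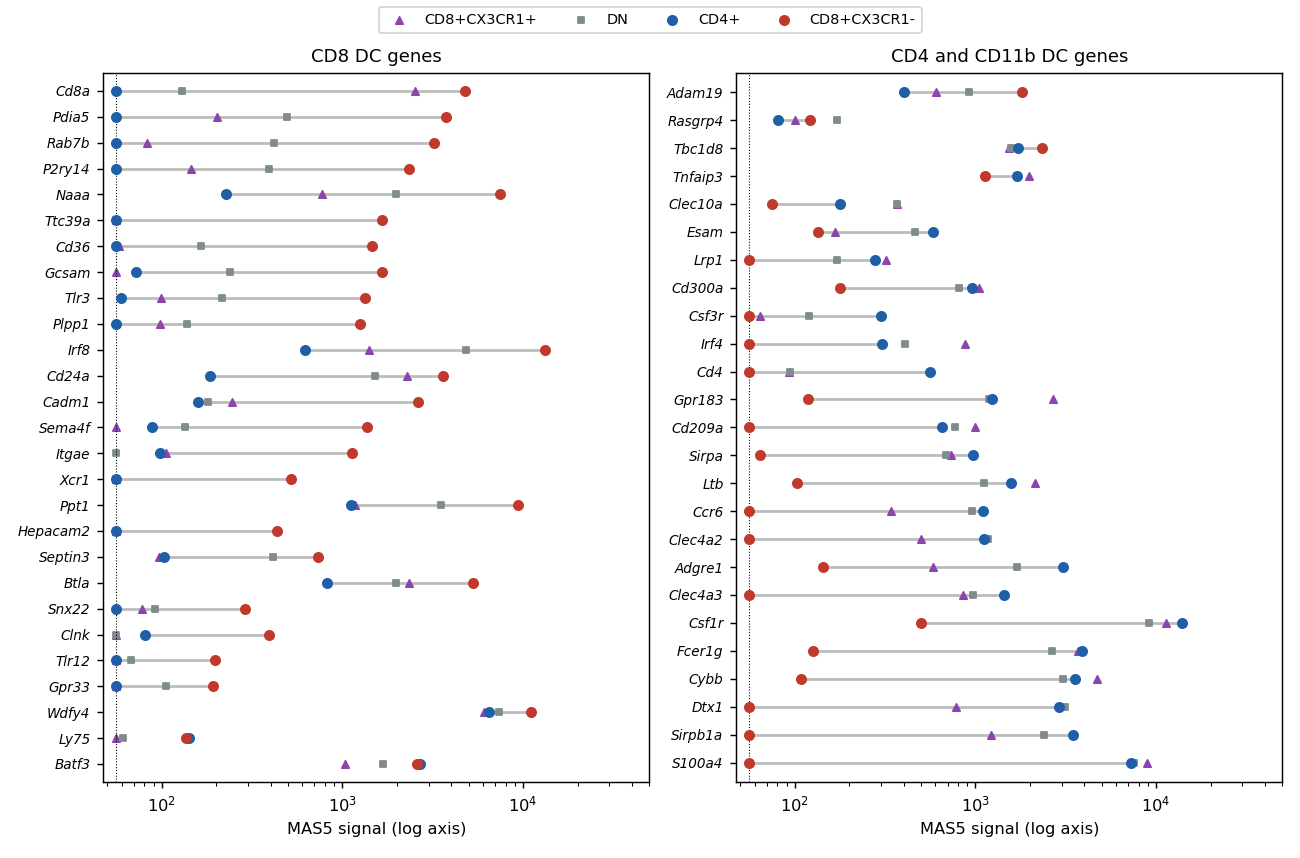
MAS5 signal (log axis, raised to the floor, dotted line) of the detected members of the CD8 DC list (left) and of the CD4 and CD11b DC list (right) on all 4 arrays, with a grey line joining the CD8+CX3CR1- (red) and CD4+ (blue) values. Most members are widely separated, while Batf3 and Ly75 at the foot of the left panel are not, and Adam19 at the top of the right panel goes the other way.

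Genes shared by conventional DCs differed little. Of 13 detected DC identity genes, 1 was at least 4-fold higher in CD8+CX3CR1- DCs (Adam19, again) and 0 in CD4+ DCs, with a median of 0.07. Flt3, the growth factor receptor that all DCs need, was 2580 against 1717. Zbtb46, a transcription factor of conventional DCs, was 456 against 324. Dpp4, a surface peptidase, was 3415 against 3624. Ccr7, the receptor for migration to T cell zones, was 983 against 845. These 4 genes lay less than 2-fold apart, and H2-Aa was 23096 against 32503. Both arrays therefore carry the DC markers that the sort label calls for. Cst3, an inhibitor of cathepsins, was the other member past 2-fold, at 12870 against 3533 (3.64-fold).

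Few transcription factors of DC development were called. Of 53 detected, 1 was at least 4-fold higher in CD8+CX3CR1- DCs (Irf8) and 3 in CD4+ DCs. These shares of 1.89% and 5.66% stand against 1.28% and 1.95% over all detected genes. The median was -0.27 and became 0.07 with an equal median. Irf4, which CD4+ DCs use, was at least 5.47-fold higher in CD4+ DCs (3.5 against 305). Relb, a subunit of the alternative NF-kB pathway, was 631 against 3119 (4.94-fold). Spib, an Ets factor that pairs with IRF proteins on DNA, was 60.3 against 577, where the lower value lies within background and the 9.57-fold difference is best read as a bound. Irf4 and Irf8, which bind the same composite sites with Ets partners, thus had their higher values on opposite arrays. At 2- to 4-fold, Id2, a helix-loop-helix inhibitor needed for CD8 DCs, was 1389 against 425 and Nfil3, which acts before it, was 155 against 45.3. Klf4 (121 against 477), Bhlhe40 (158 against 503) and Stat5a (71.0 against 253) were higher in CD4+ DCs by less than 4-fold, and Zeb2 by at least 3.88-fold (48.1 against 216). Spi1, which encodes PU.1, was 919 against 1107.

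Receptors for microbial products were divided between the arrays. Of 18 detected genes of the Toll-like receptor list, 2 were at least 4-fold higher in CD8+CX3CR1- DCs and 3 in CD4+ DCs, with a median of -0.41. Beside Tlr3, Cd14, the co-receptor for lipopolysaccharide, was 1089 against 197 (5.53-fold). On the CD4+ array Tlr1, which pairs with TLR2 to bind lipopeptides, was 75.2 against 1166 (15.5-fold). Tlr7, an endosomal receptor for single-stranded RNA, was at least 8.12-fold higher (5.6 against 452). Tlr5, the flagellin receptor, was at least 6.07-fold higher (38.6 against 338). The receptors for double- and single-stranded RNA therefore lay on opposite sides. Tlr2 itself was level at 706 against 709, as were the shared adaptor Myd88 (1199 against 1033) and the transporter Unc93b1 (878 against 817). Without the probe sets that can bind several transcripts (suffixes _x, _s and _a), the remaining Tlr3 probe set gave a log2 difference of 0.82. With probe sets averaged, Tlr7 was at -1.63.

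Cytosolic sensors lay higher in CD4+ DCs. Of 17 detected, 0 were at least 2-fold higher in CD8+CX3CR1- DCs and 8 in CD4+ DCs, 2 of these at 4-fold, with a median of -0.90. Ddx58, the RIG-I sensor of viral RNA, was 63.8 against 380 (5.95-fold), and its log2 difference was -0.86 with probe sets averaged. Nlrp3, the inflammasome sensor, was at least 5.92-fold higher (25.9 against 330). Ifih1, the MDA5 sensor, was 601 against 2196, Casp1, the inflammasome protease, 181 against 649, and Sting1, the adaptor for cytosolic DNA, 549 against 1704, each less than 4-fold apart. Pycard, the inflammasome adaptor, was near level at 1803 against 2128, and Cgas, which senses the DNA, was 834 against 674. The median kept its sign under the other scalings, at -0.94 after quantile normalization and -0.56 with an equal median.

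Interferon-stimulated genes were the functional group with the most members called in CD4+ DCs. Of 36 detected, 13 were at least 4-fold higher in CD4+ DCs and 0 in CD8+CX3CR1- DCs, with a median of -1.65. Type I interferons switch on these genes, and IRF factors bind repeats of the bases GAAA in their promoters. Ifit3, which limits viral translation, was at least 20.3-fold higher (40.8 against 1133). Rtp4 was at least 18.9-fold higher (2.8 against 1053). Isg20, an RNA exonuclease, was 67.8 against 1068 (15.7-fold). Ifitm3, a membrane protein that blocks virus entry, was 437 against 4935 (11.3-fold). Of the 2'-5' oligoadenylate synthetases, which activate RNase L, Oas1a was 110 against 1216, and Oas2 and Oasl2 were at least 12.6-fold and at least 9.62-fold higher. Oas3 was short of 4-fold, at least 3.54-fold higher (32.2 against 197). The related Oasl1 went the other way, at 115 against a value within background (59.4).

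The list was not uniform. Rsad2, the antiviral protein viperin, was 159 against 1535 (9.68-fold), Ifit2 was 176 against 932 (5.30-fold) and Slfn8, of a family that limits virus growth, 202 against 928 (4.59-fold). Against them, Trim30a was 5275 against 2685, Mx1, an antiviral GTPase, 724 against 411 and Bst2, which tethers virus particles, 236 against 89.8, so these 3 were higher in CD8+CX3CR1- DCs. Irf7, the master regulator of interferon production, was close at 426 against 548, and Lgals3bp was 262 against 275. By sign alone 28 of 36 members were higher in CD4+ DCs as deposited and 24 of 35 with an equal median. Ifi27 was 183 against 1899 and its neighbour Ifi27l2a 215 against 954. The DN array lay at 427 for Ifit3, 919 for Rsad2 and 702 for Oas1a. The CD8+CX3CR1+ array lay at 158, 527 and 286 for the same genes. The CD8+CX3CR1- array was thus the lowest of the 4 for each of these 3. With probe sets averaged the median was -0.99 and 11 members passed 4-fold, and Rsad2 (log2 -1.81) did not. With an equal median it was -1.38, also with 11 members past 4-fold, Slfn8 (-1.85) and Ifi27l2a (-1.80) no longer among them.

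The interferon-inducible GTPases, which attack vacuoles that hold microbes, shared the pattern in part. Of 8 detected, 2 were at least 4-fold higher in CD4+ DCs: Gbp8 at 85.6 against 697 and Gbp7 at 70.6 against 312. With an equal median Gbp7 (log2 -1.79) was not past 4-fold. Iigp1 was 181 in CD8+CX3CR1- DCs against a value within background. Igtp (502 against 569), Irgm1 (231 against 265) and Gbp2 (247 against 260) were within 1.15-fold. Guanylate-binding proteins and immunity-related GTPases are near-identical copies in places, and their probe sets can share targets.

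**Figure D3:**
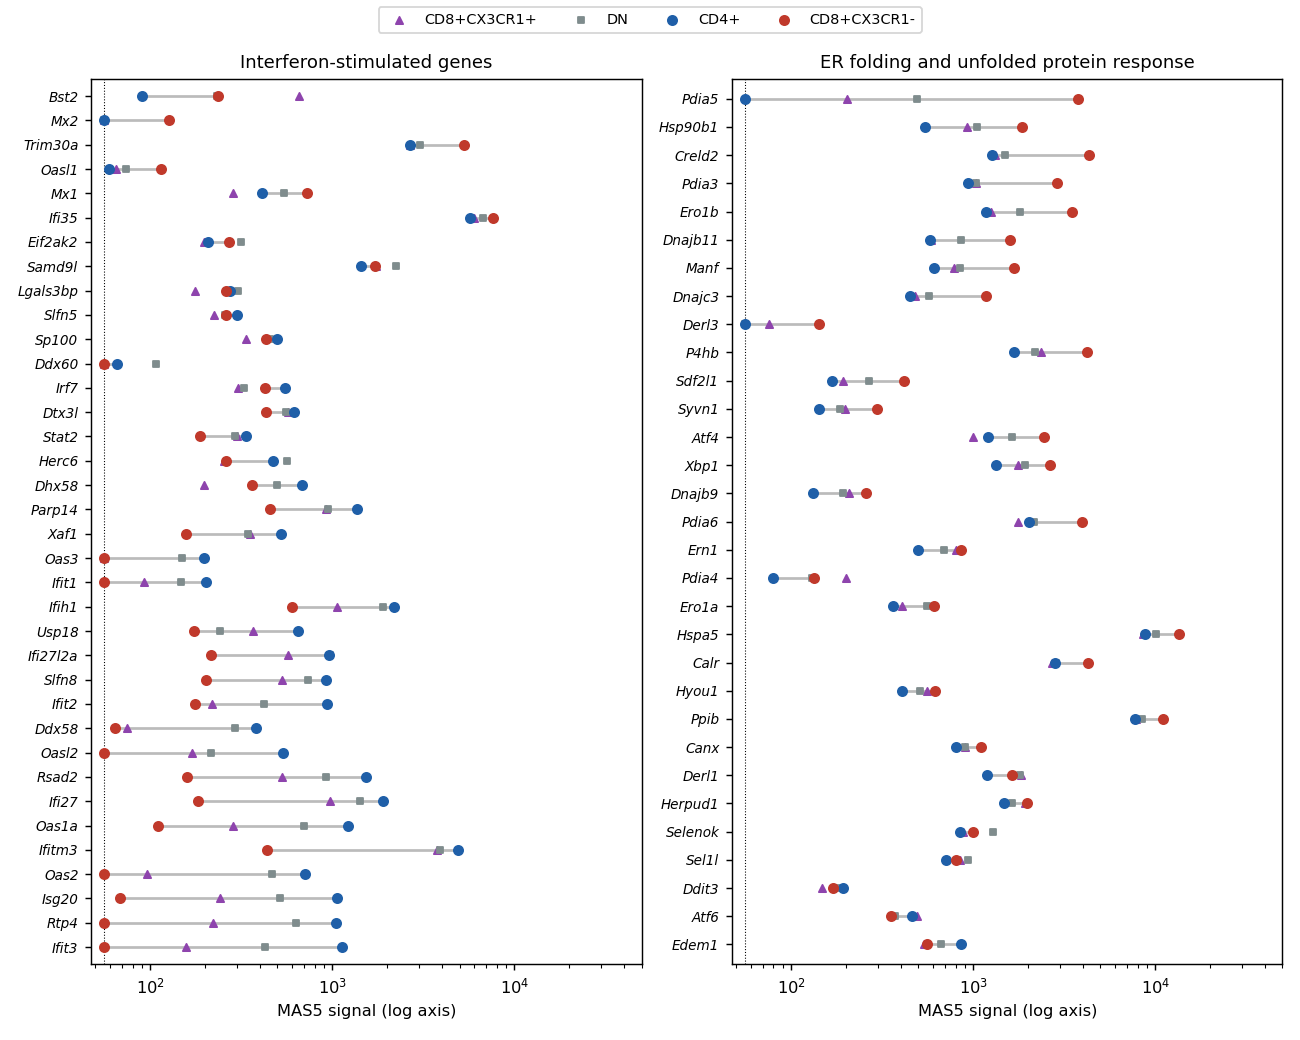
MAS5 signal (log axis, raised to the floor, dotted line) of the detected interferon-stimulated genes (left) and genes of ER folding and the unfolded protein response (right) on the 4 arrays, ordered by the difference between the CD8+CX3CR1- (red) and CD4+ (blue) arrays. On the left 28 of 36 members are higher in CD4+ DCs (24 of 35 with an equal median), by up to at least 20.3-fold, and on the right 28 of 31 are higher in CD8+CX3CR1- DCs, mostly by less than 4-fold.

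The promoters of these genes were read for the interferon response element, here GAAA, any 2 bases, then GAAA, on both strands, since most of the group lay higher on 1 array. Windows of 60 bases that end upstream of the annotated start are shown for 5 of the genes named above and for Cybb, a called gene outside the interferon list. They are from RefSeq (GRCm38.p6), 5' to 3' on the gene's strand, with the match in capitals, which on the opposite strand reads as its reverse complement.
Ifit3, chr19:34583382-34583441, plus strand: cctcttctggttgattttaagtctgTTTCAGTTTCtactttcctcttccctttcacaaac
Rsad2, chr12:26456538-26456597, minus strand: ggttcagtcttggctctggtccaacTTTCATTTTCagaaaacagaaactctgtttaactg
Oas1a, chr5:120907526-120907585, minus strand: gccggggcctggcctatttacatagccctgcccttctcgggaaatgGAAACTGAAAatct
Slfn8, chr11:83020824-83020883, minus strand: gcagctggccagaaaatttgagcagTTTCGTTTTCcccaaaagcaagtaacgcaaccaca
Gbp7, chr3:142530258-142530317, plus strand: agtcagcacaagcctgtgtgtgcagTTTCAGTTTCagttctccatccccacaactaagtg
Cybb, chrX:9469414-9469473, minus strand: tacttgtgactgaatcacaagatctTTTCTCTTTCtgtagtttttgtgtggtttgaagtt

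Over 250 bases before to 50 after the start, this motif stood in 3.44% of all 32851 promoters in the table and in 3.07% of those of detected genes. It stood in 17 of 33 promoters (51.5%) of detected interferon-stimulated genes. The share was 53.8% (7 of 13 promoters) for members at least 4-fold higher in CD4+ DCs and 10 of 20 for the rest of the list, so the motif was about as frequent in members that did not pass 4-fold. Among all genes at least 4-fold higher in CD4+ DCs it stood in 8.37% of promoters (20 of 239). Outside the interferon list this was 5.75% (13 of 226), and for genes higher in CD8+CX3CR1- DCs it was 3.36% (5 of 149). The composite element of PU.1 or SpiB with IRF4 or IRF8, here GGAA, any 2 bases, then GAAA, stood in 3.35% and 2.01% of promoters of the genes higher on the CD4+ and CD8+CX3CR1- arrays, and in 2.72% of all promoters. On 1 strand the same bases cannot match both patterns, since their second letters differ. Of the called genes, 177 of 227 and 115 of 149 had a promoter in the table. A match describes the letters and not binding.

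Uptake receptors were mostly higher in CD4+ DCs. Of 22 detected C-type lectins, which bind sugars on microbes and dead cells, 6 were at least 4-fold higher in CD4+ DCs and 1 in CD8+CX3CR1- DCs, with a median of -1.03. Clec7a, the beta-glucan receptor Dectin-1, was 406 against 4425 (10.9-fold). Clec4n, which encodes Dectin-2, was at least 15.6-fold higher (37.8 against 868). The inhibitory lectins Clec4a3 (34.8 against 1446) and Clec4a2 (8.2 against 1119) were both at least 20.1-fold higher. Cd209a, a relative of DC-SIGN, was at least 11.7-fold higher (2.4 against 651), and Cd72 at least 9.02-fold (6.9 against 503). Cd207, which encodes langerin, was the 1 lectin past 4-fold on the other side, at 725 against 25.3. On the CD8+CX3CR1+ and DN arrays Cd207 was also under the floor, at 27.4 and 4.9.

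Receptors that signal through tyrosine motifs showed the same tilt. Of 20 detected SIRP, PIR, CD300 and TREM family genes, 8 were at least 4-fold higher in CD4+ DCs and 1 in CD8+CX3CR1- DCs, with a median of -1.50. Cd300lf, which binds lipids of dying cells, was 122 against 1698 (13.9-fold). Siglecg, an inhibitory sialic acid receptor, was 153 against 1371 (8.93-fold). Lair1, an inhibitory collagen receptor, was 90.6 against 519 (5.73-fold), with a log2 difference of -1.55 when probe sets were averaged. Cd300lb (339) and Pilrb1 (422) were above background in CD4+ DCs but not in CD8+CX3CR1- DCs. The CD8+CX3CR1+ array read 292.5 and 313.9 for these 2 genes, and the DN array 255.6 and 290.5. Treml4, known for binding late apoptotic cells, was the exception, at 2124 against 399 (5.32-fold higher in CD8+CX3CR1- DCs). Among 10 detected Fc receptor genes, 3 were at least 4-fold higher in CD4+ DCs and 0 on the other. Fcrl1, of an Fc receptor-like family, was 209 against 1039. Fcer1g, the signalling chain shared by activating Fc receptors, was 126 against 3903 (31.1-fold). Fcgr4, a receptor for IgG, was 97.1 against 461 (4.75-fold), while the inhibitory Fcgr2b was 1513 against 1105. By sign the 10 genes were split 5 to 5, and Fcgrt, the neonatal Fc receptor, was 999.9 against 403. With an equal median Fcgr4 (log2 -1.90) and Fcrl1 (-1.96) were not past 4-fold, so of the 3 calls Fcer1g held. Tyrobp, the DAP12 adaptor, was 8258 against 15635, and Cd47 was level at 3511 against 3542.

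The scavenger, complement and dead cell receptors leaned to the CD4+ array, with 9 at least 2-fold higher there and 2 in CD8+CX3CR1- DCs. By sign 18 were higher in CD4+ DCs and 7 in CD8+CX3CR1- DCs, or 17 and 8 with an equal median. Of 25 detected, 1 was at least 4-fold higher in CD8+CX3CR1- DCs (Cd36) and 3 in CD4+ DCs, with a median of -0.53. The latter were Lrp1, an endocytic receptor, at least 4.98-fold (37.2 against 277), the integrin chain Itgb3 at least 4.81-fold (47.2 against 268) and C1qb, a chain of complement C1q, at 358 against a value within background. Scarb1, a lipoprotein receptor, was 2758 against 1128, and Havcr2, the TIM-3 receptor, 3150 against 1855, both higher in CD8+CX3CR1- DCs by less than 4-fold. The calls of C1qb, Lrp1 and Itgb3 each ended under at least 1 other setting, at log2 differences of -1.49, -1.92 and -1.87.

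MHC class II genes were abundant on both arrays and close between them. Of 20 detected genes of class II presentation, 1 (5.0%, against 1.95% of all detected genes) was at least 4-fold higher in CD4+ DCs. In CD8+CX3CR1- DCs 0 were, and the median of -0.41 became -0.07 with an equal median. H2-Ab1 was 14812 against 17330, H2-Eb1 13266 against 17224 and Cd74, the invariant chain, 13547 against 18543. H2-Eb2 was the 1 called gene, at 206 against 2129 (10.3-fold). H2-DMb2, a chain of the peptide editor H2-M, was 911 against 3014 and H2-Oa, of its inhibitor H2-O, 3419 against 7336. The classical chains thus differed by less than 1.5-fold while H2-Eb2 differed more than the others. Ciita, the class II transactivator, was 1057 against 1252.

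The list of lysosomal cathepsins and cystatins leaned to CD4+ DCs, while some members, the protease gene Ctse among them, lay higher in CD8+CX3CR1- DCs. Of the 27 members detected, 15 were at least 2-fold higher in CD4+ DCs and 5 in CD8+CX3CR1- DCs, with 3 and 2 past 4-fold and a median of -1.04. Ctsd, an aspartic protease, was 113 against 562 (4.98-fold), Lyz2, which encodes lysozyme, 1652 against 7284 (4.41-fold) and Acp5, an acid phosphatase, 167 against 1990 (11.9-fold). Ctsa (647 against 2533), Ctsc (1209 against 4171) and Ctsz (1370 against 4279) were 3- to 4-fold higher in CD4+ DCs. Ctss, which trims the invariant chain, was close at 5605 against 7238. Naaa and Ppt1 were the 2 called in CD8+CX3CR1- DCs, followed by Cst3, Ctse (1371 against 434) and Psap (11496 against 5405). Lyz2 (log2 -1.79) and Ctsd (-1.97) were not past 4-fold with an equal median. In that setting 1 gene of the list was at least 4-fold higher in CD4+ DCs and 4 in CD8+CX3CR1- DCs. By sign the list kept its lean there, with 19 members higher in CD4+ DCs and 8 in CD8+CX3CR1- DCs.

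Class I presentation was shifted by small steps toward the CD8+CX3CR1- array. Of 37 detected genes, 0 passed 4-fold either way, 4 were at least 2-fold higher in CD8+CX3CR1- DCs and 28 were higher by any amount, with a median of 0.52. Cd1d1, which presents lipids to NKT cells, was 4606 against 1476 and Pdia3, a disulfide isomerase of the peptide-loading complex, 2890 against 940. Tapbpl, a peptide editor, was 529 against 240, and the peptide transporter genes Tap1 (2008 against 1133) and Tap2 (494 against 327) were less than 2-fold higher. Against these, the class I chains H2-K1 (14619 against 18486), H2-D1 (7196 against 9759) and B2m (10437 against 12155) were less than 1.5-fold apart, and H2-K1 and B2m lie within the range where the scaling sets the sign. As deposited, 9 of the 37 genes were lower in CD8+CX3CR1- DCs, these class I chains and Ifi30 (9847 against 17366) among them. With an equal median 34 were higher in CD8+CX3CR1- DCs and 3 in CD4+ DCs. The list median was 0.42 after quantile normalization and 0.84 with an equal median.

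Genes of protein folding in the endoplasmic reticulum (ER) lay together on the CD8+CX3CR1- side by small to moderate steps. Of 31 detected, 13 were at least 2-fold higher there and 0 in CD4+ DCs, against a background of 7.34% and 9.86%, and 28 of 31 were higher by any amount, with a median of 0.96. Pdia5, a disulfide isomerase, was the 1 gene past 4-fold, at 3755 against 19.6. The chaperone Hsp90b1, which folds Toll-like receptors and integrins, was 1853 against 542 (3.42-fold). Creld2 was 4351 against 1272 (3.42-fold), the oxidase Ero1b 3502 against 1171 (2.99-fold), and the co-chaperones Dnajb11 and Dnajc3 were 1601 against 577 and 1180 against 452. Xbp1, the transcription factor that IRE1 activates in the unfolded protein response, was 2629 against 1331 (1.97-fold), and Ern1, which encodes IRE1, was 856 against 501. Ddit3, the death-linked factor CHOP, was near level at 170 against 192, and Atf6 was 355 against 460 and Edem1 555 against 862. At the probe sets used, most folding genes were thus higher and these 3 were not. Another probe set gave a log2 difference of 1.28 for Edem1 and 0.77 for Atf6. Ddit3, at -0.17, lies within the range where the scaling sets the sign. With an equal median 29 members were higher in CD8+CX3CR1- DCs and 2 in CD4+ DCs. The median was 0.83 after quantile normalization, 1.31 with an equal median and 0.74 with probe sets averaged.

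Vesicle and oxidase genes, which set how antigen is handled in the phagosome, were also split. Of 34 detected Rab genes and partners, 10 were at least 2-fold higher in CD8+CX3CR1- DCs and 1 in CD4+ DCs, with 2 and 0 past 4-fold and a median of 0.42. Beside Rab7b, Rab32, of lysosome-related organelles, was 971 against 184 (5.28-fold). Rab11a, of recycling endosomes, was 3521 against 1206, and Rab43, known for a part in cross-presentation, 5846 against 2316. Of 12 detected genes of the phagocyte oxidase list, 3 were at least 4-fold higher in CD4+ DCs and 0 in CD8+CX3CR1- DCs. Cybb, the catalytic subunit, was 108 against 3569 (33.1-fold) and Hvcn1, the proton channel that sustains the oxidase, 79.5 against 814 (10.2-fold). Txnip, an inhibitor of thioredoxin, was 670 against 3075, and was not past 4-fold with an equal median (log2 -1.85). The partner subunits Cyba (4389 against 6405), Ncf1 (3002 against 4313) and Ncf4 (1811 against 1821) differed by less than 1.5-fold, so the catalytic subunit alone of the 4 named subunits was far apart. Sod2, the mitochondrial superoxide dismutase, was 2246 against 981 and so higher in CD8+CX3CR1- DCs.

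Ligands that tune T cells were called in both directions. Of 24 detected costimulatory and coinhibitory genes, 1 was at least 4-fold higher in CD8+CX3CR1- DCs (Btla) and 3 in CD4+ DCs, with a median of -0.20 that became 0.08 with an equal median. Both ligands of PD-1 were among the latter: Cd274, which encodes PD-L1, at 107 against 505 (4.71-fold) and Pdcd1lg2, which encodes PD-L2, at least 8.20-fold (35.7 against 457). Icosl, the ligand of ICOS, was 145 against 789 (5.44-fold). Cd86, a ligand of CD28 and CTLA-4, was 3099 against 812 and so 3.82-fold higher in CD8+CX3CR1- DCs, while Cd80 was 251 against 181 and Cd40 475 against 1162. The 2 PD-1 ligands and the main CD28 ligand thus lay on opposite arrays, Cd86 short of 4-fold. Cd274 (log2 -1.89) was not past 4-fold with an equal median, nor Icosl (-1.22) with probe sets averaged.

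Of 19 detected cytokines, 1 (5.26%, against 1.95% of all detected genes) was at least 4-fold higher in CD4+ DCs and 0 in CD8+CX3CR1- DCs. Ltb, the membrane lymphotoxin chain, was 103 against 1568 (15.2-fold). Il12b, the p40 chain of IL-12 for which CD8 DCs are known, was 186 against a value under the floor (at least 3.35-fold), and Il15 was 191 against 66.2. Il12a, Il6, Il10 and Il23a were under the floor on both arrays. Of 15 detected chemokines, Cxcl9, which draws CXCR3+ T cells, was 4430 against 447 (9.91-fold), and Ccl9 was at least 12.2-fold higher in CD4+ DCs (46.4 against 678). Ccl22, a ligand of CCR4, was at least 3.72-fold higher in CD8+CX3CR1- DCs (207 against 47.5), and Ccl5 was 1782 against 4428. Cxcl10, a close relative of Cxcl9, was level at 160 against 165.

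Receptors for chemokines and other migration cues were called in both directions. Of 32 detected, 3 were at least 4-fold higher in CD8+CX3CR1- DCs and 6 in CD4+ DCs, with a median of -0.03 that became 0.20 with an equal median. Cxcr3 was 1819 against 229 (7.93-fold), so the receptor and its ligand Cxcl9 were both higher in CD8+CX3CR1- DCs. Xcr1 and P2ry14 were the other 2. On the CD4+ array, beside Ccr6 and Gpr183, the prostaglandin receptor Ptger3 was at least 16.2-fold (29.8 against 905), the nucleotide receptor P2ry13 at least 5.29-fold (7.5 against 295), the atypical receptor Ackr1 at least 4.54-fold (48.4 against 253) and the formyl peptide receptor Fpr2 at least 4.08-fold higher (29.0 against 227). Ackr1 and Fpr2 fell short of 4-fold with a higher floor, and Ptger3 had no difference without its _a probe set, since the other lay under the floor.

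Cytokine receptors and the NF-kB pathway were weighted to the CD4+ array. Of 46 detected receptors, 14 were at least 2-fold higher in CD4+ DCs and 1 in CD8+CX3CR1- DCs, with 5 and 0 past 4-fold and a median of -0.37. Il1r2, a decoy receptor for IL-1, was 145 against 1015 (6.99-fold), Tnfrsf13b, which encodes TACI, at least 8.76-fold (50.7 against 488) and Il21r 58.5 against 288. Il21r was not past 4-fold with an equal median (log2 -1.95). Csf3r, the receptor for granulocyte colony-stimulating factor, was at least 5.39-fold higher (50.9 against 300.4). Acvrl1, a receptor for BMP and TGF-beta family ligands, was the 1 receptor more than 2-fold higher in CD8+CX3CR1- DCs, at 603 against 159. The receptors for GM-CSF were close, with Csf2ra at 813 against 714 and Csf2rb at 1456 against 1827. Of 23 detected NF-kB genes, 7 were higher in CD4+ DCs by at least 2-fold, 3 of them by 4-fold, and 1 in CD8+CX3CR1- DCs, with a median of -0.60. By sign alone 21 were lower in CD8+CX3CR1- DCs as deposited and 18 with an equal median. Beside Ltb and Relb, Bcl3, a nuclear partner of p50 and p52, was 146 against 675 (4.62-fold), and Nfkb2, the partner of RelB, was 502 against 880. The median was -0.25 with an equal median, where Relb (log2 -1.96) and Bcl3 (-1.86) were not past 4-fold.

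The Notch pathway was not shifted as a whole. Of 26 detected genes, 1 was at least 4-fold higher in CD8+CX3CR1- DCs and 2 in CD4+ DCs, with a median of 0.09. Dtx1 and Esam were the 2, as above. Notch2, the receptor that CD4+ DCs need, was 1941 against 1312 and Rbpj, its nuclear partner, 3242 against 1566, so both were higher in CD8+CX3CR1- DCs by about 2-fold or less. Hes1, a classical target, was level at 118 against 110. Notch4 was 546 against 6.6 at 1 probe set, while 2 others gave log2 differences of 0.78 and -0.09. Dtx1 rests on 1 _a probe set and had no difference without it, and Esam was at -1.76 with an equal median.

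Adhesion and guidance genes were called in both directions. The shares were 8.16% (CD8+CX3CR1- higher) and 16.3% (CD4+ higher), against 1.28% and 1.95% over all detected genes. Of 49 detected, 4 were at least 4-fold higher in CD8+CX3CR1- DCs (Itgae, Cadm1, Cd24a and Sema4f) and 8 in CD4+ DCs, with a median of -0.15 that became 0.17 with an equal median. Sema4f, a semaphorin, was 1372 against 87.8 (15.6-fold). The plexins, receptors for semaphorins, were on the other side: Plxnd1 was at least 11.4-fold (48.0 against 634), Plxnb2 4.63-fold (218 against 1010) and Plxnc1 4.40-fold higher in CD4+ DCs (1108 against 4871). With an equal median Plxnb2 (log2 -1.86) and Plxnc1 (-1.79) were not past 4-fold, nor Plxnc1 (-1.53) with probe sets averaged. Sema4a, by contrast, was 746 against 208, and Sema4d was 472 against 1674. Adgre4, a relative of F4/80, was 445 in CD4+ DCs against a value within background, and the adhesion gene Cadm3 was at least 4.79-fold higher there (30.4 against 267), or log2 -1.61 with probe sets averaged. Vcam1 (513 against 142), Cd81 (4820 against 1713), Cd9 (1233 against 473) and Cd44 (3696 against 1689) were higher in CD8+CX3CR1- DCs by less than 4-fold. Itgal and Itgb2, the LFA-1 chains, were 1040 against 749 and 5224 against 7610.

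The S100, annexin and galectin genes gave 2 calls each way among 23 detected. S100a6 went with its neighbour S100a4, at 140 against 1217 (8.71-fold). Crip1, a LIM-domain protein, was 8566 against 1780 (4.81-fold). Ahnak, a very large scaffold protein, was 928 against 92.5 at its brightest probe set but its log2 difference was 0.83 with probe sets averaged. Anxa1, an anti-inflammatory annexin, was 4831 against 1591, and Lgals3, which encodes galectin-3, was 9881 against 4124. In the cytoskeleton list 3 of 39 detected genes passed 4-fold, all in CD8+CX3CR1- DCs. Sh3pxd2b, a scaffold of podosomes, was 1207 against 56.9, a value within background. The tubulins Tubb2a (935 against 96.2) and Tubb6 (714 against 116) were the others, and their probe sets disagreed: averaged, they gave log2 differences of 1.45 and 1.29. Actb, Actg1, Coro1a and Cfl1 were each within 1.22-fold.

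Metabolic genes were called in both directions. Of 34 detected genes of lipid metabolism, 4 were at least 4-fold higher in CD8+CX3CR1- DCs (Cd36, Plin2, Plpp1 and Naaa) and 3 in CD4+ DCs. Plin2, which coats lipid droplets, was 5163 against 770 (6.71-fold). Fabp5, a fatty acid carrier, was 200 against 3068 (15.3-fold higher in CD4+ DCs), and Pla2g7, a lipase that degrades platelet-activating factor, at least 5.67-fold (40.2 against 316). The synthetic genes Fasn (984 against 285) and Sqle (345 against 106) were higher in CD8+CX3CR1- DCs by less than 4-fold. Hpgd, which inactivates prostaglandins, was 173 against 918 at an _s probe set, and its other probe set lay under the floor.

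Of 20 detected genes of glycolysis and glucose uptake, 2 were at least 4-fold higher in CD8+CX3CR1- DCs and 3 in CD4+ DCs. Pfkp, a phosphofructokinase, was 3560 against 528 (6.75-fold) and Hk3, a hexokinase of myeloid cells, 830 against 185 (4.49-fold). Pgk1 was 5066 against 1870 and Aldoc 547 against 148. The glucose transporter Slc2a3 was 66.1 against 1297 (19.6-fold higher in CD4+ DCs), and Ddit4, an inhibitor of mTORC1, 86.7 against 1824 (21.0-fold). So these 4 enzymes lay on one side and this transporter on the other, while the list as a whole was split. At 2-fold 5 genes were higher on each array. By sign 12 were higher in CD8+CX3CR1- DCs and 8 in CD4+ DCs, or 13 and 7 with an equal median. Pfkp had a log2 difference of 1.49 with probe sets averaged, and Slc2a3 had no difference above the floor without its _x, _s and _a probe sets. Txnip was the other gene called in CD4+ DCs. Slc11a1, a metal exporter of phagosomes, was 1127 against 210 (5.37-fold), while Tfrc, the transferrin receptor, was 409 against 1453.

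Proliferation genes lay mostly less than 2-fold apart and leaned by small steps to the CD8+CX3CR1- array. Of 43 detected cell cycle genes, 1 (2.33%, against 1.95% of all detected genes) was at least 4-fold higher in CD4+ DCs. In CD8+CX3CR1- DCs 0 were, and the median was 0.25, or 0.60 with an equal median. By sign 32 were higher in CD8+CX3CR1- DCs and 11 in CD4+ DCs, or 39 and 4 with an equal median. Ccnd2, a cyclin of the G1 phase, was 134 against 1636 (12.2-fold), and Ccnd1 was 4397 against 14948 (3.40-fold). The mitotic genes Cdc20 (884 against 277), Cdk1 (825 against 301) and Ccnb2 (634 against 254) were higher in CD8+CX3CR1- DCs by less than 4-fold. Mki67, a marker of cycling cells, was 2767 against 2262 and Pcna 5498 against 3984. The D-type cyclins 1 and 2 and the mitotic genes thus had opposite signs, and Ccnd3 was level at 797 against 780.

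Survival and protease genes were called in both directions. Of 13 detected Bcl2 family genes, Bcl2l14 was 867 against 104 (8.34-fold; log2 3.06, or 1.88 without the _x, _s and _a probe sets) and Bcl2l11, the death-promoting BIM, 2536 against 773 (3.28-fold), while Mcl1, a survival factor, was 4720 against 6168. Of 27 detected serpins and proteases, 2 were at least 4-fold higher in CD8+CX3CR1- DCs and 4 in CD4+ DCs. Adam19 was 1 of the former. Serpinb6b, an inhibitor of granzymes, was 1384 against 143 (9.70-fold) and Serpinb9, which blocks granzyme B, 1234 against 374. Tgm2, a transglutaminase that cross-links proteins, was 245 against 6967 (28.5-fold higher in CD4+ DCs). Mmp12, an elastase, was 781 there and under the floor on the other array, and Adam11 was at least 7.52-fold and Adamdec1 at least 7.01-fold higher. Of 33 detected immediate early and dissociation stress genes 0 passed 4-fold, and Fos (4875 against 3084), Egr1 (501 against 486) and Dusp1 (5086 against 3140) were less than 2-fold apart. At 2-fold, 4 were higher in CD4+ DCs (Klf4, Jun, Fosl2 and Rhob) and 1 in CD8+CX3CR1- DCs (Jund, 1363 against 588). The part of digestion in the results was not tested.

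Several of the largest differences lay outside these lists. In CD8+CX3CR1- DCs such genes included Unc119b, a lipid-binding trafficking protein, at 3011 against 283, Serpinf1, a secreted serpin, at 1006 against 55.1, and P3h2, a collagen prolyl hydroxylase, at 819.6 against 12.1. Met, the receptor for hepatocyte growth factor, was 818 against 4.0 at its brightest probe set, with a log2 difference of 1.94 when its probe sets were averaged. Nek6, a mitotic kinase, was 1240.2 against 82.9. In CD4+ DCs Dennd3, an exchange factor for Rab GTPases, was 102 against 2659, and St8sia6, a sialyltransferase, 95.5 against 2191. Mcemp1 was 130 against 2251, Wfdc17 98.0 against 1687, and Bex6 916 against a value within background. Emb, an adhesion partner of lactate transporters, was 145 against 2309 and Cd7, a surface protein better known from lymphocytes, 41.0 against 965. On the CD8+CX3CR1+ and DN arrays Cd7 read 1030 and 924, near the CD4+ value, while Serpinf1 read 108 and 188. So for these 2 genes the CD8+CX3CR1- array stood alone among the 4.

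Markers of other spleen cells were read for what else the sorts could hold. Of 16 detected monocyte markers of 22 on the array, 6 were at least 4-fold higher in CD4+ DCs and 2 in CD8+CX3CR1- DCs (Cd14 and Treml4), and the summed signal was 13654 against 50901. The 6 were Csf1r, S100a4, Lyz2, Ms4a6c (388 against 2154), Ms4a4c (121 against 2417) and Ace (at least 4.06-fold, 22.9 against 226, and short of 4-fold under 4 other settings), and 11 of the 16 detected markers stand in other lists, CD4 DC genes among them. The monocyte markers Fn1, F13a1, Vcan and Itgam were under the floor on both arrays, and Ccr2 was 225 against 143. Of 14 red pulp macrophage markers, 2 were at least 4-fold higher in CD4+ DCs (Adgre1 and C1qb) and 1 in CD8+CX3CR1- DCs (Treml4). By sign 9 were higher in CD4+ DCs and 5 in CD8+CX3CR1- DCs, also with an equal median. The summed signal was 3737 against 6282. Spic, their defining factor, was near the floor at 74.1 against 70.5, and Vsig4, Marco, Mertk and Siglec1 were under it on both arrays.

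Lymphoid markers were mixed, with the T cell receptor complex under the floor and some B and NK cell genes well above it. Of 12 detected B cell markers, Cd22 was 269 against 2513 and Cd79b at least 7.21-fold higher in CD4+ DCs (3.1 against 402), with a summed signal of 4527 against 8241 of which Ighm made up 3226 against 4319. The B cell marker Ms4a1 (CD20) went the other way, at 446 against 202. By sign 8 of the 12 were higher in CD4+ DCs and 4 in CD8+CX3CR1- DCs, or 6 and 5 of 11 with an equal median. Cd79a was under the floor on both arrays (3.1 against 27.2), and Cd22 was 2713 on the DN array. Cd3d, Cd3e and Cd3g were under the floor on both, and 0 of 7 detected T cell markers passed 4-fold (summed signal 362 against 821). Of 7 detected NK cell markers, Klrd1 was 167 against 1886 (11.3-fold) and Klrk1 340 against 76.5 (4.44-fold), with a sum of 647 against 2412, and Ncr1 was under the floor. Of 17 plasmacytoid DC markers 3 were at least 4-fold higher in CD4+ DCs, Spib, Tlr7 and Lair1, while Siglech was 63.6 against 5.8 (sum 2550 against 4054). By sign 11 of them were higher in CD4+ DCs and 6 in CD8+CX3CR1- DCs, or 10 and 8 with an equal median. For neutrophil markers the sum was 325 against 673 with Csf3r the 1 called gene of 6, and for erythroid and platelet markers 240 against 607 with Car2 the 1 of 4. The part of other cells in the called genes was not tested beyond these values.

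**Figure D4:**
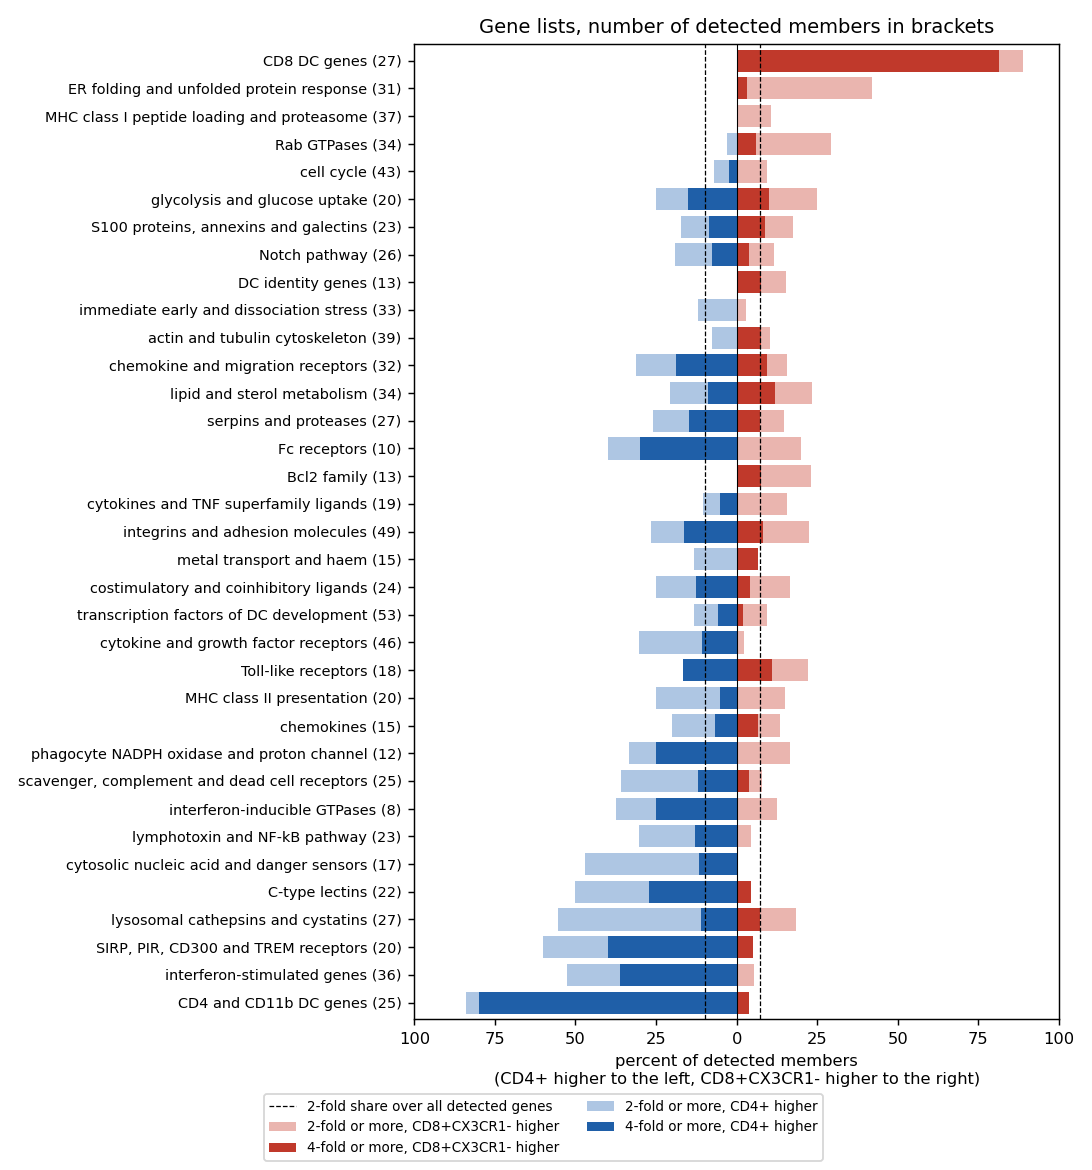
Share of each list's detected members (number in brackets) that were higher in CD8+CX3CR1- DCs (right, red) or in CD4+ DCs (left, blue), at 4-fold or more (dark) and at 2-fold or more (light). Dashed lines mark the 2-fold shares over all detected genes, 7.34% on the right and 9.86% on the left. Beside the subset lists, ER folding stands out on the right, and the SIRP and interferon-stimulated lists on the left.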

How the data were processed

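The deposited values are MAS5 signal (intensity per probe set, linear scale), per the submitters' processing notes, and their trimmed mean (trim 2%) was 150.0 on each array. Of 45101 probe sets, 64 controls were dropped, 34945 had 1 symbol in the platform annotation and were named, 932 had several and 9160 none. Symbols were checked against RefSeq (GRCm38.p6), which held 99.4% of the Entrez identifiers, and 0 changed. The floor was the 90th percentile of 127 probe sets of chemosensory receptors and hair keratin-associated proteins over the 4 arrays. The own-array percentile was 62.6 (CD8+CX3CR1-) and 59.9 (CD4+), so lower signals are within background. Differences are of log2 signal after flooring, and 4-fold defines a called gene. No test is possible with 1 array per group, and the number of arrays limits the precision.

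The members and 43 lists were chosen with earlier results of these data known. Named were the sort markers, the 15 largest measured differences and 10 brightest bounds each way, every called list member and up to 4 further members by signal, and cell type markers. Other genes and the examples described were chosen after their values were seen. Scripts used Python 3.11.15, numpy 2.4.6 and pandas 2.3.3 and were tested on simulated data. The alternatives were other floors, quantile or equal-median scaling and other choices of probe set.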

Additional observations from a re-analysis of the deposited data

How the results depend on the processing

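Of 154 named genes followed under 9 other settings, 152 were called and 106 stayed past 4-fold in every setting that holds them. Tubb2a reversed, to a log2 difference of -0.38, without the _x, _s and _a probe sets. Without a floor, 1402 and 2225 genes were at least 4-fold higher in CD8+CX3CR1- and CD4+ DCs, in place of 149 and 227, since low signals then enter as they are. With probe sets averaged, which pulls in dim ones, they were 94 and 151. With an equal median 236 were higher in CD8+CX3CR1- DCs (59.9% of calls, 39.6% in the main setting). Of the CD4 and CD11b DC list, 2 members were at least 4-fold higher in CD8+CX3CR1- DCs without a floor and 0 with probe sets averaged. Of the interferon-stimulated list, 1 was at least 4-fold higher there without a floor. Quantile normalization gave 152 and 227, floors at the 75th and 95th percentile 190 and 309, and 135 and 188. Of 169 called genes with at least 2 probe sets above the floor, 146 had all of them in 1 direction and 34 had all past 4-fold. The standard deviation over a gene's probe sets had a median of 0.43 (log2), which covers probe error and not the spread between mice or sorts. No paired analysis was possible because each group has 1 array. Differences close to the floor are limited by signal over background.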

Other observations

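Several gene families outside the lists above were one-sided, and the families in this paragraph were chosen after their values were seen. Of 8 detected Ms4a genes, which encode membrane proteins that span the lipid layer repeatedly, 5 were at least 4-fold higher in CD4+ DCs and 0 in CD8+CX3CR1- DCs. Ms4a6b was 230 against 2720 (CD8+CX3CR1- against CD4+) and Ms4a7 was 428 in CD4+ DCs against a value within background. Ms4a1, which encodes CD20, went the other way at 446 against 202. Of 4 detected Ifitm genes, 3 were at least 4-fold higher in CD4+ DCs: Ifitm1 at 98.0 against 519, Ifitm3 as given above and Ifitm6 at 278 against 3015, while Ifitm2 was 245 against 636. The paired membrane genes Tmem176a (255 against 3604) and Tmem176b (631 against 10106) were also higher there. Among 21 detected tyrosine kinases and adaptors of myeloid receptors, 4 were at least 4-fold higher in CD4+ DCs and 0 on the other. Fgr, a Src family kinase, was 211 against 3193, Pram1 at least 17.6-fold higher (55.5 against 978), Fyb, an adaptor of integrin signalling, 928 against 6334 and Tec 168 against 683. Syk, which acts below Dectin-1 and the Fc receptor chain, was 795 against 1838, and Fyn, a further Src family kinase, was 497 against 439.

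Lysosomal genes other than the cathepsins were called in both directions. Of 32 detected lysosomal hydrolases, 6 were at least 4-fold higher in CD8+CX3CR1- DCs and 2 in CD4+ DCs. The median was 0.05, so the list as a whole was not shifted. Gusb, which cleaves glucuronides, was 6165 against 476 (12.9-fold). Fuca1, a fucosidase, was 4172 against 858, Arsb, a sulfatase, 3699 against 824 and Galc, which degrades galactosylceramide, 556 against 119. Naaa and Ppt1 were the other 2. Acp2, an acid phosphatase, was 65.9 against 492 and joined Acp5 on the CD4+ side. Of 28 detected lysosomal sorting and membrane genes, 3 were at least 4-fold higher in CD8+CX3CR1- DCs and 1 in CD4+ DCs, and at 2-fold 4 and 5. Igf2r, the receptor that carries enzymes to the lysosome, was at least 10.3-fold higher in CD8+CX3CR1- DCs (577 against 20.5), Laptm4b was 2663 against 226 and Atp6v0a2, a proton pump subunit, 1354 against 325. Slc15a3, a peptide transporter, was 84.3 against 532. M6pr, the other sorting receptor, was level at 2235 against 2233. The probe sets of Arsb did not all agree in direction. All these lists were chosen after the values were seen.

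Some genes called in the same direction lay side by side in the genome. In the RefSeq order of GRCm38.p6, 40 of 226 placed genes higher in CD4+ DCs (17.7%) had an adjacent detected gene called the same way, in 19 runs. Among these runs were Ifit2, Ifit3 and Ifit1bl1, then Ifitm1, Ifitm3 and Ifitm6, and the pairs Cd274 and Pdcd1lg2, S100a4 and S100a6, and Tmem176b and Tmem176a. For genes higher in CD8+CX3CR1- DCs it was 10 of 149 (6.71%), in 5 runs such as Gpr171 and P2ry14. Of all detected genes, 1.95% and 1.28% were called in these directions. These are shares for a single gene, while the called neighbour could lie on either side. They are therefore lower than the share of genes with such a neighbour that a random order would give. Many of these neighbours are members of 1 gene family, and their probe sets may share targets.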
